A study of Homo sapiens with 24 samples.

Results

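The genes described here are 10 targets of the hypoxia-inducible factors (HIF): SLC2A1, LDHA, PDK1, BNIP3, NDUFA4L2, CA9, ADM, NDRG1, EGLN3 and ANKRD37. They were taken by symbol from a list, out of 37967 genes in the larger of the deposited tables. Of these 10 genes, 9 were read from a count table of 33113 genes, and SLC2A1 was read from the larger table only. RNA was sequenced from HCT116 cells, a human colorectal carcinoma line, and from HCT116 oxpl-R cells, a derivative of that line that had survived repeated pulses of oxaliplatin at a high concentration. Each line was kept untreated (control), received 25 µM oxaliplatin for 24 h, received 0.5 µg/mL doxycycline to switch on an adenovirus E1A gene, or received doxycycline 3 h before the same oxaliplatin treatment. This gave 8 groups of 3 samples that the labels call biological replicates, 24 samples in all, and every one of them, the controls included, carries the genotype TetOn-E1A. Doxycycline was present in each E1A group and in no other, so that the antibiotic and E1A cannot be told apart. None of the groups is labelled as hypoxic, so the levels given here are those of cells in which a shortage of oxygen was not applied by design.

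HIF is a pair of proteins, an unstable alpha subunit (HIF1A, EPAS1) and a stable partner (ARNT). With oxygen present, prolyl hydroxylases (EGLN1, EGLN2, EGLN3) mark the alpha subunit for destruction, and without oxygen it accumulates, binds hypoxia response elements and calls on the coactivators p300 and CBP, which adenovirus E1A also binds. The 10 genes cover the main branches of the response: glucose uptake and lactate formation (SLC2A1, LDHA), the turning down of mitochondria (PDK1, BNIP3, NDUFA4L2), pH control at the cell surface (CA9), a secreted peptide (ADM), growth and differentiation (NDRG1), and feedback on the pathway (EGLN3) together with ANKRD37, an ankyrin repeat protein. In tumors several of these genes are used as readouts of hypoxia and of glycolytic metabolism.

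The core of the hypoxia response element is ACGTG or GCGTG, and the promoters of 8 of the 10 genes could be searched for it in the RefSeq table of GRCh38.p14. The windows ran from 250 bases before to 50 bases after the start given there. Both strands were searched, so that a CACGTG palindrome counts on each strand. These starts can differ from the ends of the gene spans given below, which come from another annotation. The windows of ANKRD37 and EGLN3 (chr14:33951025-33951324) lie wholly inside those spans, whose outer ends were not searched. LDHA and BNIP3 held 6 cores each, ANKRD37 held 3, and CA9, ADM and SLC2A1 held 1 each, while no core was found in the windows of PDK1 and EGLN3. The stretches of 250 bases upstream of the start are shown for the 3 genes with several cores and for CA9, the member called lower in HCT116 oxpl-R cells, with the cores in capitals and each read 5′ to 3′ on the strand of its gene. They lie at chr11:18394313-18394562 on the forward strand (LDHA), chr10:131981924-131982173 on the reverse strand (BNIP3), chr4:185396591-185396840 on the forward strand (ANKRD37) and chr9:35673678-35673927 on the forward strand (CA9).
LDHA: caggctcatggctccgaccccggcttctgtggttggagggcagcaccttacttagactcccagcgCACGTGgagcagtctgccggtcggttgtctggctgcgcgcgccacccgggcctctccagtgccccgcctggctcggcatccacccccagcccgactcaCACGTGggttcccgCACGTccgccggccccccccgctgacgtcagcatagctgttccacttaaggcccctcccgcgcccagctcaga
BNIP3: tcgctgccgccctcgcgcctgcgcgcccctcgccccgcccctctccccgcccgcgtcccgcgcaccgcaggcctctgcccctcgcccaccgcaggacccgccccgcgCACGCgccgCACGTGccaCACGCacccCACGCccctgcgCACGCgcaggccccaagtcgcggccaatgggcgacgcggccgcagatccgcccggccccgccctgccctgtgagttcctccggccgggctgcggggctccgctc
ANKRD37: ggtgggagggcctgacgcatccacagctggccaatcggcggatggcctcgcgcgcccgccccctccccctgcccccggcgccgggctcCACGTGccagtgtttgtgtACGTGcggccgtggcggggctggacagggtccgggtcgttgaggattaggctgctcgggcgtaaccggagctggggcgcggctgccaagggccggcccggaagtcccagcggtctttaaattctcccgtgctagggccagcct
CA9: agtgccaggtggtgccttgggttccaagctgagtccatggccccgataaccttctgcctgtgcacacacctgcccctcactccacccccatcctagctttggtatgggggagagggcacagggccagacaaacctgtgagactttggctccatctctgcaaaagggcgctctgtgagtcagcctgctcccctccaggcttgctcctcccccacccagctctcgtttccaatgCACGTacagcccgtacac
Of the 8 promoters, 6 (75%) held a core, against 48.4% of 27305 promoters in the table, 62.3% of the 10425 whose genes had a mean of at least 10 normalized counts, and 81.6% of the 49 promoters of other listed HIF targets. The single core of CA9 starts 18 bases before the start of the gene. A further core of LDHA and the only core of SLC2A1 lie after the start, outside the stretch shown. These matches describe letters and no binding was measured.

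The count table summed to 24838095 to 37927720 counts per sample, with a median of 29382753. Normalized counts are counts scaled to a common effective library size, and all tests are edgeR's quasi-likelihood test in a fit of all 24 samples, with p adjusted over 19452 genes of the count table (22833 of the larger table for SLC2A1). Errors of levels are SD, errors of log2 fold changes are SE, n is 3 per group, and a gene is said to rise or fall where its adjusted p is below 0.05. Because the RNA came from bulk cultures, fewer cells of a kind and less RNA per cell cannot be told apart. Of 5 epithelial markers, EPCAM, CDH1, KRT8 and KRT18 were high in every group, CDX1 was at or near 0, and of the markers of other cell types PTPRC, PECAM1 and DCN had group means of at most 9.85 normalized counts whereas COL1A1 had 524 to 838. CDKN1A, a p53 target used as a check of the treatment, rose with oxaliplatin by 3.70 ± 0.20 (log2) in HCT116 and by 2.87 ± 0.19 in HCT116 oxpl-R cells. Its untreated means were 4220.5 and 16569 normalized counts. Of the 3 listed p53 targets, GDF15 also rose in both lines (2.94 ± 0.23 and 2.01 ± 0.22). MDM2 rose in HCT116 oxpl-R cells (2.08 ± 0.21) but did not pass in HCT116 cells (0.46 ± 0.20, edgeR adjusted p = 0.122). The E1A transcript itself was not analysed here, and E2F1, a target of the E2F factors that E1A sets free, did not pass with E1A alone in either line (0.39 and 0.54, edgeR adjusted p = 0.677 and 0.358), though its samples did not overlap. With E1A under oxaliplatin in HCT116 oxpl-R cells, 3 of 4 listed E2F targets rose against oxaliplatin alone: E2F1 (2.20 ± 0.18, edgeR adjusted p = 1.11e-09), MCM5 (1.68 ± 0.17, edgeR adjusted p = 2.18e-07) and CCNE2 (2.48 ± 0.43, edgeR adjusted p = 0.000822). Oxaliplatin alone had lowered these 3 in that line, from means of 2803 to 639 (E2F1), 6300 to 1441 (MCM5) and 800 to 264 (CCNE2) normalized counts. With both treatments the means were 2941, 4604 and 1464. In HCT116 cells under oxaliplatin none of the 4 passed.

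Some libraries stood apart from their group mates, and 3 of the 24 were left out together as an alternative. The libraries HCT116 oxaliplatin replicate 3 and HCT116 E1A + oxaliplatin replicate 1 leaned to long transcripts relative to the other replicates of their groups. Taking the median of the 947 longest of 9462 genes minus that of the 948 shortest, on the log2 scale against the mean of all samples, they stood at 0.68 and 0.17, while the other replicates of their groups stood between -0.83 and -0.33. The lean also differed between groups, with 0.38 to 0.66 in untreated HCT116 cells and -0.13 to 0.10 in untreated HCT116 oxpl-R cells. Leaving the 3 libraries out keeps HCT116 oxaliplatin replicates 1 and 2 (-0.83 and -0.68), which lie far from the untreated samples of that line. The library HCT116 oxpl-R oxaliplatin replicate 1 had 1.38% of its counts on mitochondrial genes, against 11.0% to 19.7% in the other 23. A further library, HCT116 oxpl-R E1A + oxaliplatin replicate 3, leaned to short transcripts (-0.72 against 0.01 and -0.20 in its group). It was left out on its own only, which ended 1 call of a member, that of CA9 between the lines with both treatments. Results that rest on the other 3 are given with and without all 3 of them.

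Set side by side per kilobase of the canonical transcript, the members covered a wide range of levels in untreated HCT116 cells. LDHA stood at 21180 normalized counts per kb, and SLC2A1 followed at 2819. BNIP3 and NDRG1 stood at 1327 and 1242, ADM at 781 and ANKRD37 at 683. EGLN3 (126), PDK1 (38.8), CA9 (20.5) and NDUFA4L2 (5.27) made up the lower end, so that CA9 and NDUFA4L2, which are strongly expressed in many hypoxic cells, rest on few counts here.

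**Figure D1:**
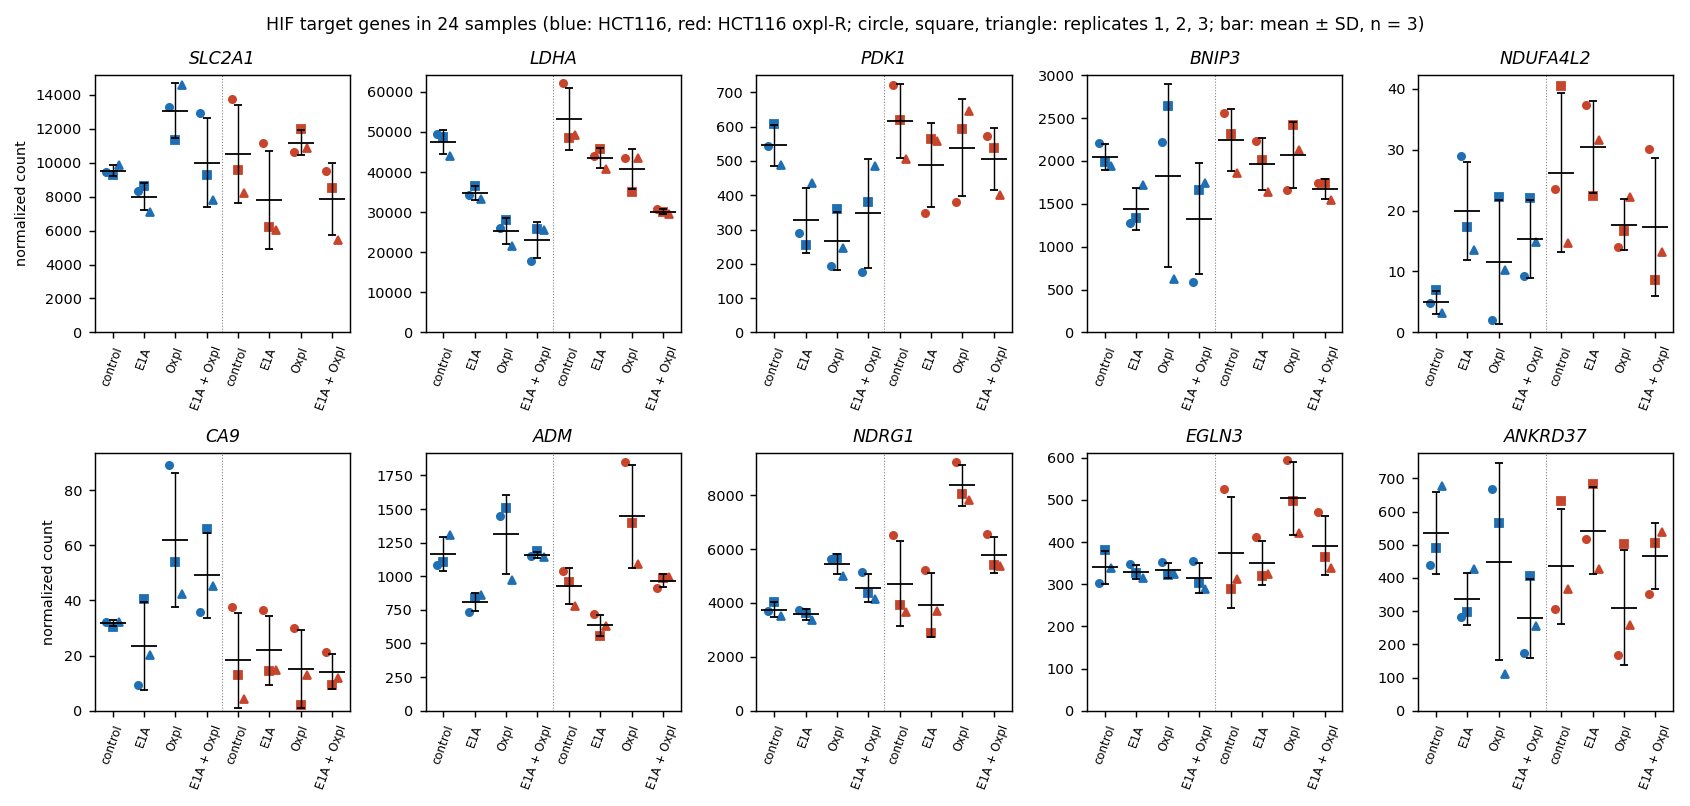
Normalized counts (linear axis from 0) of the 10 genes in each of the 24 samples, with the 8 groups along the horizontal axis, HCT116 in blue, HCT116 oxpl-R in red, marker shapes for replicates 1, 2 and 3, and a bar for mean ± SD (n = 3). LDHA lies below its untreated level in every oxaliplatin sample of HCT116 cells, and NDRG1 is highest in the oxaliplatin samples of HCT116 oxpl-R cells (7832 to 9247).

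LDHA (chr11:18394560-18408425, forward strand) encodes the A subunit of lactate dehydrogenase, which turns pyruvate into lactate, and it gave the most stable difference of the 10. In replicates 1, 2 and 3 untreated HCT116 cells had 49563, 48714 and 44107 normalized counts. With oxaliplatin the same line had 26132, 27971 and 21594. All 3 treated samples were lower than all 3 untreated ones, and LDHA fell by 0.91 ± 0.18 on the log2 scale (1.88-fold lower, edgeR adjusted p = 0.000732). The fall kept its direction and its call in all 18 alternatives, and it was -0.71 ± 0.15 (edgeR adjusted p = 0.000541) without the 3 libraries. In HCT116 oxpl-R cells the untreated samples had 62117, 48443 and 49215 and the oxaliplatin samples 43603, 34991 and 43621. These groups did not overlap either, but the difference of -0.39 ± 0.18 did not pass (edgeR adjusted p = 0.267). The response of HCT116 oxpl-R cells minus that of HCT116 cells was 0.52 ± 0.25 on the log2 scale, which did not pass (edgeR adjusted p = 0.312), so a different response of the lines was not shown.

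Between the lines LDHA did not pass without treatment (0.17 ± 0.18, edgeR adjusted p = 0.615), and the samples overlapped. Under oxaliplatin it was 1.61-fold higher in HCT116 oxpl-R cells (0.69 ± 0.18, edgeR adjusted p = 0.00397), and 0.49 ± 0.16 without the 3 libraries (edgeR adjusted p = 0.0197). With the samples of that comparison alone it was not called (0.61 ± 0.26, edgeR adjusted p = 0.114). The expressed genes within 2 Mb of LDHA had a median of 0.59 in the same contrast (18 genes), close to LDHA itself. Under E1A the levels were 34377, 36639 and 33220 in HCT116 cells and 44070, 45750 and 40803 in HCT116 oxpl-R cells. Every E1A sample was lower than every untreated sample of its line, with differences of -0.45 ± 0.18 and -0.29 ± 0.18 that did not pass in the fit of all samples (edgeR adjusted p = 0.598 and 0.952). With E1A and oxaliplatin together, HCT116 cells had 17924, 25728 and 25588 and HCT116 oxpl-R cells 30857, 30027 and 29541, again without overlap. LDHA fell with oxaliplatin among the E1A samples of HCT116 cells (-0.59 ± 0.18, edgeR adjusted p = 0.0384), but this call was lost in 12 of 18 alternatives and stood at -0.36 (edgeR adjusted p = 0.286) without HCT116 E1A + oxaliplatin replicate 1.

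SLC2A1 (chr1:42925353-42958893, reverse strand) encodes GLUT1, the glucose transporter through which HIF raises the supply of sugar. Its values come from the larger table. Untreated HCT116 cells had 9465, 9265 and 9887 normalized counts and oxaliplatin-treated ones 13273, 11349 and 14606, so that the treated samples were all higher. The difference of 0.46 ± 0.23 did not pass (edgeR adjusted p = 0.197), although it did when only these 6 samples were fitted (0.50 ± 0.13, edgeR adjusted p = 0.0229). In HCT116 oxpl-R cells the untreated samples spread widely, with 13787, 9569 and 8229, and they enclosed the oxaliplatin samples (10633, 12015 and 10867). Under E1A the levels were 8327, 8623 and 7079 in HCT116 cells, all below the untreated samples, and 11147, 6240 and 6061 in HCT116 oxpl-R cells. With both treatments they were 12910, 9267 and 7828, and 9535, 8526 and 5457, respectively. SLC2A1 passed in none of the 12 comparisons. In HCT116 cells its oxaliplatin samples lay above the untreated ones, where those of LDHA lay below.

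PDK1 (chr2:172555373-172608669, forward strand) encodes a kinase that inhibits pyruvate dehydrogenase. Untreated HCT116 cells had 544, 607 and 488 normalized counts and oxaliplatin-treated ones 194, 361 and 247. The treated samples were all lower, and PDK1 fell by 1.03 ± 0.30 (2.04-fold lower, edgeR adjusted p = 0.0161), or by 0.89 ± 0.27 without the 3 libraries (edgeR adjusted p = 0.0134). HCT116 oxpl-R cells had 723, 620 and 507 without treatment and 379, 593 and 645 with oxaliplatin, and these samples overlapped. The difference was -0.19 ± 0.30 (edgeR adjusted p = 0.867). Under oxaliplatin PDK1 was therefore 2.02-fold higher in HCT116 oxpl-R cells than in HCT116 cells (1.01 ± 0.30, edgeR adjusted p = 0.0113), with no overlap, whereas without treatment it did not pass (0.17 ± 0.30, edgeR adjusted p = 0.827). The difference of the oxaliplatin responses, 0.84 ± 0.42, did not pass (edgeR adjusted p = 0.334).

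The transcript of PDK1 used for its length has 14072 bases, by far the longest of the 10, and HCT116 oxaliplatin replicates 1 and 2 leaned to short transcripts (-0.83 and -0.68). With the trend of the counts with length removed, the fall in HCT116 cells was -0.44 ± 0.32 and was not called (edgeR adjusted p = 0.431). It was not called either without HCT116 oxaliplatin replicate 1 (-0.75, edgeR adjusted p = 0.162) or without HCT116 control replicate 2 (-0.95, edgeR adjusted p = 0.0673), and the difference between the lines under oxaliplatin was not called without HCT116 oxaliplatin replicate 1 (0.77, edgeR adjusted p = 0.104) or HCT116 oxpl-R oxaliplatin replicate 3 (0.79, edgeR adjusted p = 0.0833). The latter difference was also not called with the length trend removed (0.76, edgeR adjusted p = 0.0788) or with the samples of the comparison alone (0.93, edgeR adjusted p = 0.0595), and the fall not in the larger table (-0.81, edgeR adjusted p = 0.0787) or by limma on it (adjusted p = 0.0609 and 0.0681). With E1A the levels were 289, 256 and 435 in HCT116 cells, all below the untreated ones, and 347, 563 and 558 in HCT116 oxpl-R cells. With both treatments they were 175, 381 and 486, and 573, 538 and 402. PDK1 was lowest in the 3 treated groups of HCT116 cells, whose means of 267 to 347 were not ordered beyond their spread, while the 5 other groups had means of 489 to 616.

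BNIP3 (chr10:131967684-131981967, reverse strand) encodes a mitophagy receptor of the outer mitochondrial membrane. Untreated HCT116 cells had 2212, 1990 and 1937 normalized counts and untreated HCT116 oxpl-R cells 2561, 2319 and 1858, which overlapped (0.13 ± 0.33, edgeR adjusted p = 0.937). Under oxaliplatin HCT116 oxpl-R cells had 1663, 2416 and 2130. HCT116 cells had 2219 and 2644 in replicates 1 and 2 but 628 in replicate 3, which is the library that stood apart, and with E1A and oxaliplatin they had 583 in the other such library against 1656 and 1746. Without the 3 libraries the response of HCT116 cells to oxaliplatin turned from -0.16 ± 0.33 to 0.35 ± 0.16, and neither value was called (edgeR adjusted p = 0.889 and 0.12). With E1A alone the levels were 1275, 1331 and 1720 in HCT116 cells, all below the untreated samples, and 2231, 2016 and 1634 in HCT116 oxpl-R cells. With both treatments HCT116 oxpl-R cells had 1745, 1742 and 1541.

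BNIP3 stood out from its surroundings on chromosome 10. In untreated cells the 17 other expressed genes within 2 Mb had a median log2 fold change of -0.94 between HCT116 oxpl-R and HCT116 cells, and 16 of them were below 0, while BNIP3 was at 0.13. The same held in the other conditions, with medians between -1.03 and -0.93 for the neighbors and 0.44, 0.18 and 0.34 for BNIP3 with E1A, with oxaliplatin and with both. Of 82 expressed genes within 20 Mb, 67 were below BNIP3. The median of chromosome 10 was -0.26. Without treatment NDUFA4L2 lay further from its neighbors than BNIP3 (2.37 against 0.04 for 75 genes). The other members lay closer to theirs, though CA9 was nearly as far from them as BNIP3 (-0.81 against 0.16 for 46 genes). ANKRD37 had -0.30 against -0.57 (21 genes) without treatment and -0.53 against -0.34 with oxaliplatin, but 0.69 against -0.40 with E1A and 0.74 against -0.39 with both. These medians are descriptions, and the number of gene copies was not measured here.

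**Figure D2:**
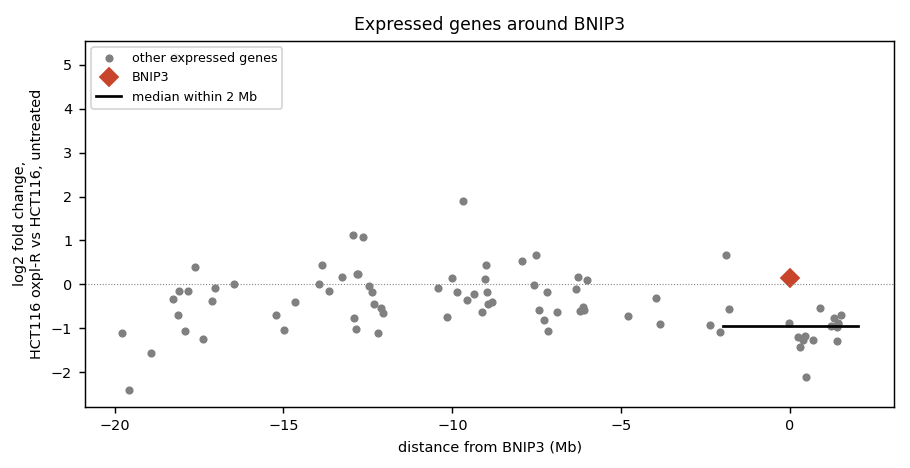
Log2 fold change between untreated HCT116 oxpl-R and HCT116 cells (vertical axis) of the expressed genes around BNIP3 against their distance from it in Mb (horizontal axis); the bar is the median of the 17 genes within 2 Mb and the diamond is BNIP3. BNIP3 lies above 0 at 0.13, and the genes next to it lie mostly near the median of -0.94.

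NDUFA4L2 (chr12:57234903-57240715, reverse strand), a mitochondrial protein that HIF induces to lower complex I activity, was called between the untreated lines. Untreated HCT116 cells had 4.90, 6.88 and 3.13 normalized counts and HCT116 oxpl-R cells 23.5, 40.4 and 14.7. The lines did not overlap, and NDUFA4L2 was 5.16-fold higher in HCT116 oxpl-R cells (2.37 ± 0.65, edgeR adjusted p = 0.0117). These values rest on 5, 7 and 3 counts against 20, 40 and 14, and the call was lost without HCT116 control replicate 3 (2.11, edgeR adjusted p = 0.0684) or HCT116 oxpl-R control replicate 2 (1.92, edgeR adjusted p = 0.0808), and by limma on the larger table (adjusted p = 0.0846 and 0.0993). In the other conditions the lines overlapped. HCT116 cells had 28.9, 17.3 and 13.5 with E1A, 2.10, 22.3 and 10.2 with oxaliplatin and 9.22, 22.0 and 14.8 with both. HCT116 oxpl-R cells had 37.3, 22.4 and 31.7, then 14.05, 16.7 and 22.3, and 30.03, 8.53 and 13.2. The lowest group of the 8 was thus the untreated HCT116 cells, and the E1A samples of that line were all higher than its controls (1.97 ± 0.65, edgeR adjusted p = 0.35).

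CA9 (chr9:35673928-35681159, forward strand) encodes carbonic anhydrase IX, a surface enzyme that removes the acid made by glycolysis and is a common marker of hypoxic tumor cells. It was the only member called lower in HCT116 oxpl-R cells, in 2 of the 4 conditions. Under oxaliplatin HCT116 cells had 89.2, 54.1 and 42.5 normalized counts and HCT116 oxpl-R cells 30.1, 2.22 and 12.9. The lines did not overlap, and CA9 was 4.03-fold lower in HCT116 oxpl-R cells (-2.01 ± 0.63, edgeR adjusted p = 0.017). With E1A and oxaliplatin, HCT116 cells had 35.9, 66.0 and 45.4 and HCT116 oxpl-R cells 21.4, 9.47 and 11.7, also without overlap (-1.78 ± 0.63, 3.43-fold lower, edgeR adjusted p = 0.0438). Without treatment HCT116 cells were even, at 32.3, 30.5 and 32.4, whereas HCT116 oxpl-R cells had 37.6, 13.1 and 4.21, and the difference did not pass (-0.81 ± 0.63, edgeR adjusted p = 0.48). With E1A the levels were 9.28, 40.6 and 20.2 in HCT116 cells and 36.4, 14.6 and 14.9 in HCT116 oxpl-R cells, which overlapped.

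Without the 3 libraries the difference in CA9 under oxaliplatin was -3.29 ± 0.78 (edgeR adjusted p = 0.00133), the highest HCT116 oxpl-R sample being among those left out, and with both treatments it was -1.96 ± 0.62 (edgeR adjusted p = 0.0248). Under oxaliplatin the call was lost without HCT116 oxaliplatin replicate 1 (-1.72, edgeR adjusted p = 0.0712) or without HCT116 oxpl-R oxaliplatin replicate 2 or 3 (-1.56 and -1.97, edgeR adjusted p = 0.0769 and 0.052). With both treatments it was lost without HCT116 E1A + oxaliplatin replicate 1 or 2 (edgeR adjusted p = 0.0505 and 0.121) or without HCT116 oxpl-R E1A + oxaliplatin replicate 2 or 3 (0.156 and 0.103 for the edgeR adjusted p). Both calls were also lost in the larger table (-1.39 and -1.74, edgeR adjusted p = 0.127 and 0.0675) and by limma on it (adjusted p = 0.0686 to 0.163). The direction did not change in any of the 18 alternatives of either comparison.

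ADM (chr11:10305073-10307397, forward strand) encodes adrenomedullin, a secreted vasodilator peptide. Untreated HCT116 oxpl-R cells had 1041, 956 and 780 normalized counts and oxaliplatin-treated ones 1853, 1394 and 1092. All treated samples were higher, and ADM rose by 0.64 ± 0.20 (1.56-fold, edgeR adjusted p = 0.0452). The highest value belongs to the library with few mitochondrial counts, and without the 3 libraries the rise was 0.42 ± 0.16 and was not called (edgeR adjusted p = 0.129). The call was lost in 10 of 18 alternatives, among them those without any single control replicate (0.54 to 0.75, edgeR adjusted p = 0.0508 to 0.235), without oxaliplatin replicate 1 (0.43, edgeR adjusted p = 0.314) and without oxaliplatin replicate 2 (0.69, edgeR adjusted p = 0.062). In HCT116 cells the untreated samples had 1082, 1106 and 1308 and the oxaliplatin samples 1450, 1511 and 975. These overlapped through replicate 3, the library that leaned to long transcripts, and the response was 0.17 ± 0.20 with it and 0.45 ± 0.16 without the 3 libraries (edgeR adjusted p = 0.634 and 0.0394).

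The E1A samples had the lowest ADM of each line, 736, 838 and 860 in HCT116 cells and 717, 559 and 630 in HCT116 oxpl-R cells. None of them overlapped with the untreated samples of the same line, and the differences of -0.52 ± 0.20 and -0.54 ± 0.20 did not pass (edgeR adjusted p = 0.513 and 0.626). With both treatments HCT116 cells had 1150, 1186 and 1143 and HCT116 oxpl-R cells 910, 990 and 996. ADM was higher in HCT116 than in HCT116 oxpl-R cells without overlap in the untreated samples, under E1A and under both treatments, with differences of -0.35 to -0.26 on the log2 scale that did not pass (edgeR adjusted p = 0.272 to 0.416).

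NDRG1 (chr8:133237175-133302022, reverse strand) encodes a stress-responsive protein linked to growth arrest and differentiation. Untreated HCT116 oxpl-R cells had 6526, 3935 and 3665 normalized counts and oxaliplatin-treated ones 9247, 8037 and 7832. All treated samples were higher, and NDRG1 rose by 0.83 ± 0.20 (1.78-fold, edgeR adjusted p = 0.0078), or by 0.75 ± 0.19 without the 3 libraries (edgeR adjusted p = 0.0109). The call was lost without HCT116 oxpl-R control replicate 2 (0.71, edgeR adjusted p = 0.0702) or 3 (0.68, edgeR adjusted p = 0.0767), and with the samples of the comparison alone (0.84, edgeR adjusted p = 0.0729). In HCT116 cells the untreated samples had 3693, 4042 and 3532 and the oxaliplatin samples 5641, 5674 and 5016, so that the treated samples were again all higher. Here the difference of 0.54 ± 0.20 fell just short of the threshold (edgeR adjusted p = 0.0617). It passed without the 3 libraries (0.69 ± 0.19, edgeR adjusted p = 0.00665) and with the replicate number as a block (0.53, edgeR adjusted p = 0.0238).

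Under oxaliplatin the lines did not overlap in NDRG1, which was 1.54-fold higher in HCT116 oxpl-R cells (0.62 ± 0.20, edgeR adjusted p = 0.0194). This call was lost without the 3 libraries (0.43 ± 0.21, edgeR adjusted p = 0.138), without any single HCT116 oxaliplatin replicate (0.51 to 0.59, edgeR adjusted p = 0.0582 to 0.091) and without HCT116 oxpl-R oxaliplatin replicate 1 (0.54, edgeR adjusted p = 0.0634). With E1A alone NDRG1 stood at 3750, 3634 and 3351 in HCT116 cells and at 5228, 2891 and 3694 in HCT116 oxpl-R cells. With E1A and oxaliplatin it stood at 5150, 4362 and 4141 and at 6547, 5422 and 5363. In each line and with or without E1A, the oxaliplatin samples of NDRG1 were thus all higher than the samples without oxaliplatin.

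EGLN3 (chr14:33924227-34462774, reverse strand) encodes the prolyl hydroxylase PHD3, which HIF induces and which acts back on HIF. HCT116 cells were even in all 4 conditions, with 303, 380 and 338 normalized counts untreated, 348, 327 and 315 with E1A, 352, 322 and 324 with oxaliplatin and 355, 302 and 289 with both. HCT116 oxpl-R cells had 526, 288 and 312 untreated, 411, 318 and 323 with E1A, 594, 497 and 421 with oxaliplatin and 470, 366 and 337 with both. Only under oxaliplatin did the lines not overlap, and EGLN3 was 1.52-fold higher in HCT116 oxpl-R cells (0.60 ± 0.22, edgeR adjusted p = 0.047). This call was lost in 13 of 18 alternatives, among them all 6 that leave out a single oxaliplatin sample of either line (0.46 to 0.64, edgeR adjusted p = 0.0579 to 0.181) and the one without the 3 libraries (0.39 ± 0.25, edgeR adjusted p = 0.291). The 15 expressed genes within 2 Mb had a median of 0.70 in the same comparison, above EGLN3.

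ANKRD37 (chr4:185396021-185400628, forward strand) varied up to 5.98-fold between the samples of a group, less than CA9 (13.5-fold) and NDUFA4L2 (10.6-fold). It stood at 440, 490 and 676 normalized counts in untreated HCT116 cells and at 305, 633 and 365 in untreated HCT116 oxpl-R cells. With oxaliplatin HCT116 cells had 668 and 567 in replicates 1 and 2 and 112 in replicate 3, and HCT116 oxpl-R cells had 169, 504 and 259. The value of 112 is the lowest of the 24 and belongs to the library that leaned to long transcripts. With it the lines overlapped under oxaliplatin (-0.53 ± 0.42, edgeR adjusted p = 0.431), without that library ANKRD37 was lower in HCT116 oxpl-R cells (-1.06, edgeR adjusted p = 0.0226), and without all 3 libraries the difference was -0.76 ± 0.33 (edgeR adjusted p = 0.086). With E1A HCT116 cells had 284, 297 and 427, all below the untreated samples, and HCT116 oxpl-R cells 518, 684 and 427. With both treatments the values were 173, 407 and 255 in HCT116 cells and 352, 506 and 537 in HCT116 oxpl-R cells. The canonical transcripts of ANKRD37 and BNIP3 have 784 and 1542 bases, and both genes were lowest in the libraries with a lean to long transcripts among the oxaliplatin samples of HCT116 cells. With the length trend removed, the oxaliplatin response of HCT116 cells was -0.64 ± 0.33 for ANKRD37 and -0.34 ± 0.28 for BNIP3. Neither was called (edgeR adjusted p = 0.203 and 0.498), and the cause of the low values was not tested.

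**Figure D3:**
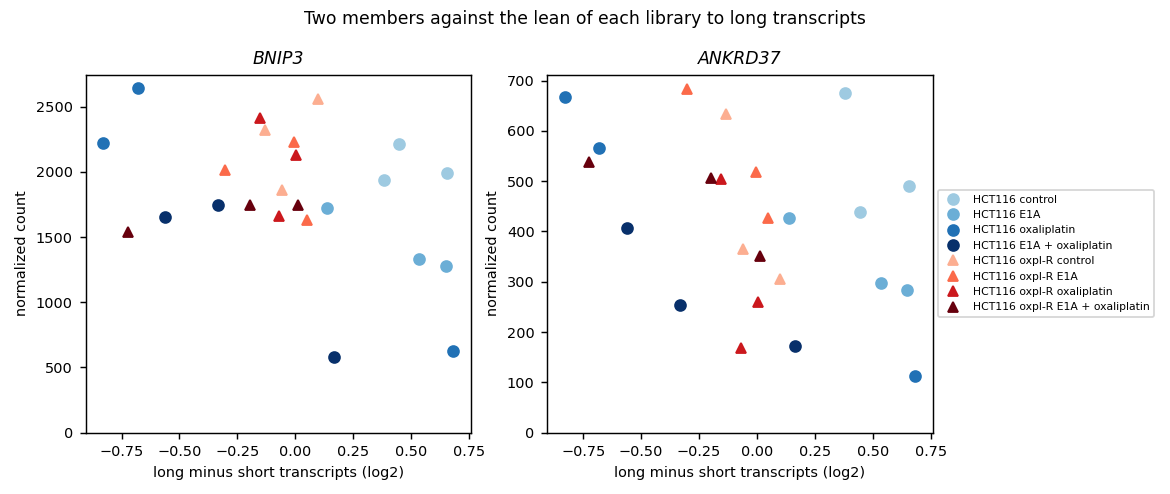
Normalized counts of BNIP3 and ANKRD37 (vertical axes) against the lean of each library to long transcripts (horizontal axis, median log2 deviation of the 947 longest genes minus that of the 948 shortest) in 24 samples, by group. The oxaliplatin sample of HCT116 cells at a lean of 0.68 has 628 normalized counts of BNIP3 and 112 of ANKRD37, whereas untreated samples of the same line with a lean of 0.38 to 0.66 have 1937 to 2212 and 440 to 676.

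Counted over the 10 genes, the comparison of the lines under oxaliplatin had 5 calls, and the order of the conditions changed with the setting. In it 4 members were higher in HCT116 oxpl-R cells (LDHA, PDK1, NDRG1, EGLN3) and 1 was lower (CA9), against 25.6% of all genes tested and 43% of the 11090 expressed ones that were called in either direction. The samples of 5 members did not overlap, against 30.2% of all and 47.9% of expressed genes, and the median log2 fold change of the members was 0.39 (0.09 over the expressed genes). Without the 3 libraries 3 members were called (LDHA, PDK1, CA9), against 30.1% of all genes, fewer than the 4 called with E1A in that setting, and with the samples of the comparison alone 1 was called (CA9), against 2 with E1A (ANKRD37, BNIP3). The share of members is thus near that of expressed genes in general.

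In the untreated lines 1 member was called, NDUFA4L2, against 14.1% of all genes and 23.6% of expressed genes. The samples of NDUFA4L2 and ADM did not overlap, against 35% and 55.9%. The median over the members was 0.14. With E1A none of the 10 was called by edgeR, against 14.4% of all genes, and none had an unadjusted p below 0.05, while DESeq2 called 1 (LDHA). ADM and LDHA did not overlap there (29.6% of all genes). Without the 3 libraries, none of which belongs to that comparison, 4 members were called with E1A, against 21.4% of all genes, and the derivative had the higher level of each: BNIP3 (0.53 ± 0.15, edgeR adjusted p = 0.00761), ANKRD37 (0.78 ± 0.27, edgeR adjusted p = 0.0352), LDHA (0.42 ± 0.13, edgeR adjusted p = 0.0189) and PDK1 (0.68 ± 0.24, edgeR adjusted p = 0.0382). With both treatments 1 member was called (CA9, lower), against 19.3% of all genes, and 4 did not overlap (31.3%).

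**Figure D4:**
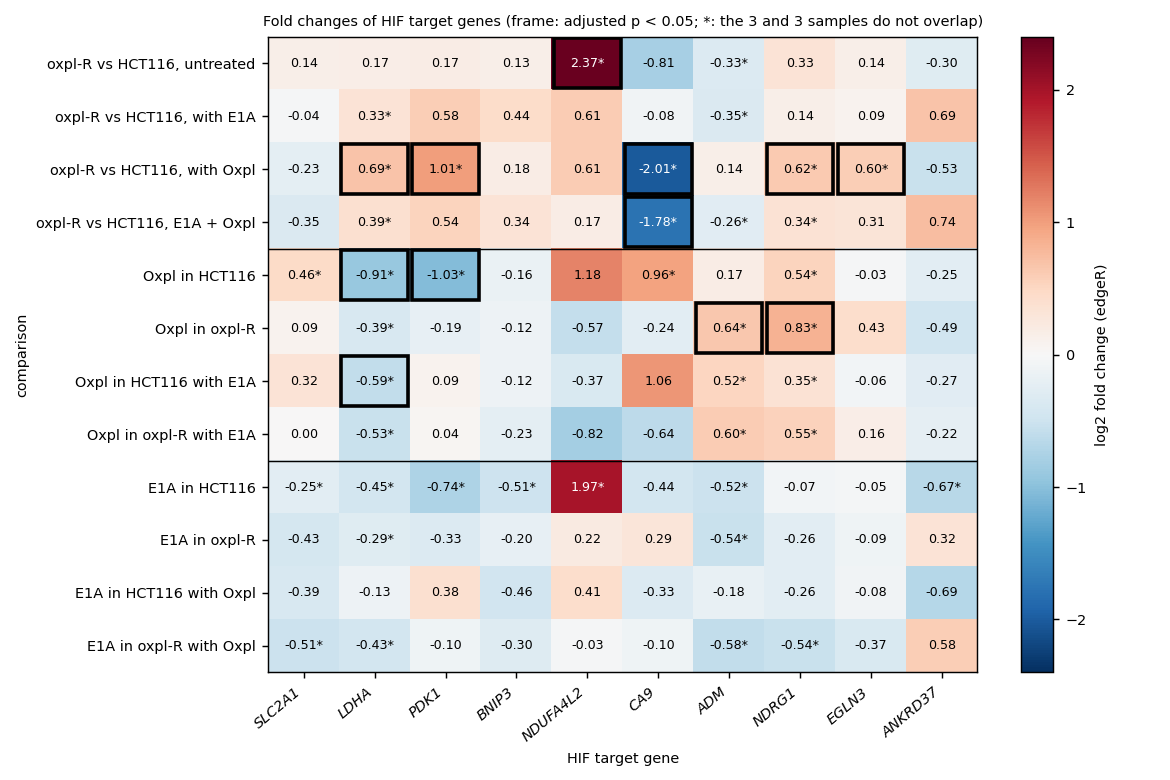
Log2 fold changes (color and number) of the 10 genes (horizontal axis) in 12 comparisons of 2 groups of 3 samples (vertical axis); a frame marks an adjusted p below 0.05 and a star marks groups whose samples do not overlap. Frames are found in 6 of the comparisons, with CA9 lower in HCT116 oxpl-R cells in both comparisons of the lines that include oxaliplatin, and in none of the comparisons of E1A.

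Oxaliplatin lowered 2 members in HCT116 cells (LDHA, PDK1) and raised 2 in HCT116 oxpl-R cells (ADM, NDRG1). The shares of all genes that were called were 17.4% and 6.11%. Members whose samples did not overlap numbered 5 in HCT116 cells, against 33%, and 3 in HCT116 oxpl-R cells, against 18.4%. The member medians were 0.07 and -0.16. Without the 3 libraries HCT116 cells had 4 calls, with ADM and NDRG1 higher beside LDHA and PDK1 lower (28.6% of all genes), and HCT116 oxpl-R cells had 1 (NDRG1, 7.68%). Among the E1A samples, oxaliplatin changed 1 member in HCT116 cells (LDHA, lower, against 8.09% of all genes) and, by edgeR, none in HCT116 oxpl-R cells (2.8%), where 3 had an unadjusted p below 0.05 and DESeq2 called 2 (ADM, LDHA). The samples of 3 members did not overlap in either case, against 25.9% and 15.1% of all genes.

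E1A alone changed no member in the fit of all samples in either line, against 0.432% (HCT116) and 0.226% (HCT116 oxpl-R) of all genes called, and DESeq2 called none either. In HCT116 cells 7 of the 10 members nevertheless did not overlap between E1A and untreated samples, against 18.8% of all genes and 29.8% of expressed genes. Of these, 6 were lower with E1A (SLC2A1, LDHA, PDK1, BNIP3, ADM, ANKRD37) and 1 was higher (NDUFA4L2), and 4 members had an unadjusted p below 0.05. In a fit of these 6 samples only, 5 fell: ADM (-0.56 ± 0.12, edgeR adjusted p = 0.00444), LDHA (-0.50 ± 0.10, edgeR adjusted p = 0.00374), PDK1 (-0.79 ± 0.17, edgeR adjusted p = 0.00552), BNIP3 (-0.55 ± 0.12, edgeR adjusted p = 0.00608) and ANKRD37 (-0.71 ± 0.17, edgeR adjusted p = 0.00962). In that fit 6.59% of 16416 genes fell and 2.91% rose. NDRG1 and EGLN3 moved by -0.12 ± 0.10 and -0.09 ± 0.14.

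In HCT116 oxpl-R cells E1A left 2 members without overlap (ADM and LDHA, both lower, against 9.84% of all genes), and 1 member had an unadjusted p below 0.05. Added to oxaliplatin, E1A changed none by edgeR in HCT116 cells (0.0874% of all genes called, no member without overlap against 4.99%, no unadjusted p below 0.05) and none in HCT116 oxpl-R cells (1.39%), where SLC2A1, LDHA, ADM and NDRG1 were lower without overlap (10.9% of all genes) and had unadjusted p below 0.05. DESeq2 called 2 of these, ADM and LDHA. The comparisons of each line share their control samples, so that their values are given side by side and were not combined. No member was called in the 4 interactions of line, oxaliplatin and E1A, in which 2.78%, 0.0103%, 0.0103% and 0.036% of all genes were called, and unadjusted p below 0.05 was found for 1 member each in the comparison of the oxaliplatin responses (LDHA) and in that of E1A with oxaliplatin in HCT116 cells (PDK1).

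Among HIF subunits and regulators, 11 of the 12 listed genes were tested. CREBBP, which encodes the coactivator CBP, was lower in HCT116 oxpl-R cells in every condition. Untreated HCT116 cells had 2497, 2487 and 2753 normalized counts and HCT116 oxpl-R cells 1688, 1535 and 1403. The lines did not overlap in any condition, and the differences were -0.74, -0.85, -1.06 and -0.96 without treatment, with E1A, with oxaliplatin and with both (edgeR adjusted p = 0.00963, 0.00318, 0.000131 and 0.000668). Without HCT116 oxpl-R control replicate 3 the untreated difference was not called (-0.68, edgeR adjusted p = 0.0512), nor was the one under oxaliplatin in the larger table (-0.54, edgeR adjusted p = 0.138). EPAS1, which encodes HIF-2 alpha, was lower in untreated HCT116 oxpl-R cells as well, with 2212, 1861 and 1874 against 2749, 2896 and 3139 (-0.56 ± 0.18, edgeR adjusted p = 0.0282), a call lost without HCT116 control replicate 2 or 3 or HCT116 oxpl-R control replicate 2 or 3 (edgeR adjusted p = 0.0722 to 0.12). It rose with oxaliplatin in both lines (0.55 ± 0.18 and 0.69 ± 0.18, edgeR adjusted p = 0.0271 and 0.0126). These rises were not called without control replicate 1 or 2 of HCT116 cells (edgeR adjusted p = 0.113 and 0.0922) and without control replicate 2 or 3 of HCT116 oxpl-R cells (edgeR adjusted p = 0.0823 and 0.0674), respectively.

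HIF1A, which encodes HIF-1 alpha, was called in none of the 12 comparisons. Untreated HCT116 cells had 3983, 4132 and 3228 normalized counts, and untreated HCT116 oxpl-R cells 1472, 1618 and 3886. The third replicate of HCT116 oxpl-R cells was the highest of its group in all 4 conditions, up to 5657 with oxaliplatin against 1691 and 1242. Of the other regulators, CITED2, which competes with HIF for p300 and CBP, rose with oxaliplatin in HCT116 cells from 1226, 1195 and 1298 to 2269, 2124 and 1971 (0.78 ± 0.17, edgeR adjusted p = 0.00167), and EGLN2 rose by 0.58 ± 0.16 (edgeR adjusted p = 0.0131), a call lost without HCT116 control replicate 1 or 2 (0.52 and 0.56, edgeR adjusted p = 0.0806 and 0.0618). Under oxaliplatin CITED2 and EGLN2 were lower in HCT116 oxpl-R than in HCT116 cells (-0.55 and -0.73, edgeR adjusted p = 0.0131 and 0.000928) and EGLN1 was higher (0.70, edgeR adjusted p = 0.0079), the latter not called without HCT116 oxaliplatin replicate 3 (0.47, edgeR adjusted p = 0.0853) or HCT116 oxpl-R oxaliplatin replicate 2 (0.52, edgeR adjusted p = 0.0766). In the 4 comparisons of the lines, 0, 0, 1 and 1 of the 11 genes were higher and 2, 2, 4 and 3 were lower. Of expressed genes, 11.7%, 11%, 22.7% and 17.1% were called higher there and 11.9%, 13.4%, 20.3% and 15.2% lower.

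**Figure D5:**
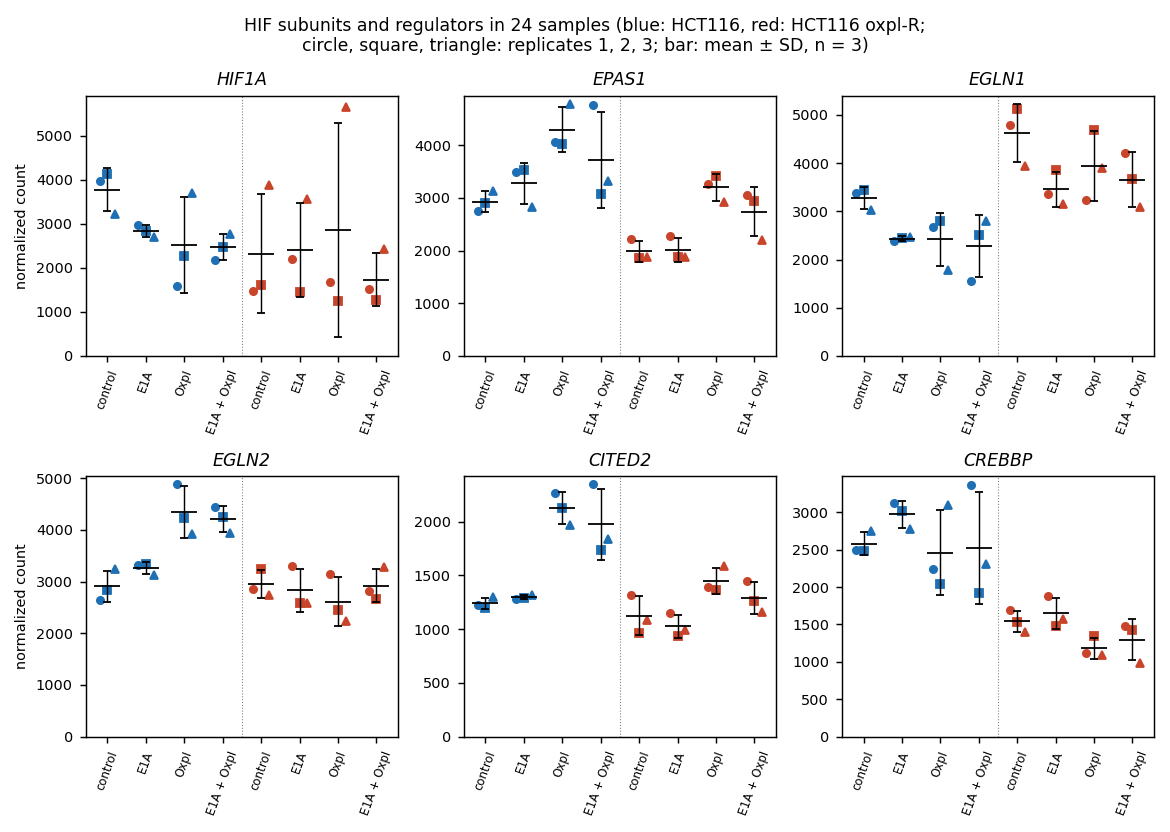
Normalized counts (linear axes from 0) of HIF1A, EPAS1, EGLN1, EGLN2, CITED2 and CREBBP in the 24 samples, in the 8 groups along the horizontal axis, with HCT116 in blue, HCT116 oxpl-R in red, marker shapes for replicates 1, 2 and 3, and a bar for mean ± SD (n = 3). CREBBP does not overlap between the lines in any condition (1403 to 1688 against 2487 to 2753 untreated), and the triangles of HIF1A lie above the other replicates in each group of HCT116 oxpl-R cells.

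A wider list of 56 other HIF targets was tested in the same fits. Without treatment 10 were higher and 6 were lower in HCT116 oxpl-R cells (median 0.07), where 11.7% and 11.9% of expressed genes were called higher and lower, and these counts ran from 6 to 19 and from 3 to 9 over the alternatives (18 and 8 without the 3 libraries). Under oxaliplatin 20 were higher and 9 were lower (median 0.29), where 22.7% and 20.3% of expressed genes were called, or 20 and 16 without the 3 libraries. By branch, the 7 genes of mitochondrial adjustment had 1, 3, 5 and 5 higher and none lower without treatment, with E1A, with oxaliplatin and with both, where 11.7%, 11%, 22.7% and 17.1% of expressed genes were called higher and 11.9%, 13.4%, 20.3% and 15.2% lower. The 18 glycolytic genes had 1, 2, 1 and 1 higher and 3, 2, 3 and 3 lower. The 7 genes of feedback, transcription and chromatin had 2, 3, 5 and 4 higher and none lower. The 12 secreted and matrix genes had 3, 3, 5 and 2 higher and 2, 1, 4 and 3 lower, and the 12 genes of stress and metabolic adaptation had 3, 5, 4 and 3 higher and 1, 1, 2 and 1 lower. None of the 56 was called with E1A alone by edgeR in the fit of all samples, and 1 rose and 13 fell in the fit of the 6 HCT116 samples only. Of the 16416 genes in the latter fit, 2.91% rose and 6.59% fell.

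Named by their size within each branch, several targets differed between the untreated lines. IGFBP3, which encodes a secreted binder of insulin-like growth factors, was higher in HCT116 oxpl-R cells (2.56 ± 0.34, means 97.2 against 16.3 normalized counts, edgeR adjusted p = 1.67e-06). EDN1, which encodes the vasoconstrictor endothelin-1, had a mean of 23.8 normalized counts in HCT116 oxpl-R cells against 1.68 in HCT116 cells. BHLHE41, a transcriptional repressor, KDM4B, a histone demethylase, and GBE1, the glycogen branching enzyme, were higher by 1.30 ± 0.30, 0.90 ± 0.21 and 1.02 ± 0.18 (edgeR adjusted p = 0.00238, 0.00296 and 9.55e-05). CA12, which encodes a carbonic anhydrase of the cell surface like CA9, was lower (-1.01 ± 0.21, edgeR adjusted p = 0.00088). Also higher were PGK1, FAM162A and MIR210HG (0.75 ± 0.26, 1.08 ± 0.37 and 1.20 ± 0.29, edgeR adjusted p = 0.0469, 0.0449 and 0.00395). Also lower were CXCR4, HK2 and PGAM1 (-1.63 ± 0.50, -0.80 ± 0.28 and -0.61 ± 0.18, edgeR adjusted p = 0.0265, 0.0478 and 0.0191).

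In HCT116 cells oxaliplatin raised ANGPTL4, a secreted regulator of lipid uptake (1.60 ± 0.22, edgeR adjusted p = 7.73e-06), and among the 9 that fell were the glycolytic enzymes PFKL (-0.85 ± 0.20, edgeR adjusted p = 0.00325) and HK2 (-0.79 ± 0.28, edgeR adjusted p = 0.0443), the mitophagy receptor BNIP3L (-0.74 ± 0.20, edgeR adjusted p = 0.00817), the collagen-modifying enzyme PLOD2 (-1.05 ± 0.28, edgeR adjusted p = 0.00937) and GBE1 (-0.91 ± 0.18, edgeR adjusted p = 0.000586). Without HCT116 oxaliplatin replicate 1, BNIP3L (-0.57, edgeR adjusted p = 0.108) and PLOD2 (-0.75, edgeR adjusted p = 0.136) were not called, nor was BNIP3L without HCT116 control replicate 1 (-0.66, edgeR adjusted p = 0.0502). The call of HK2 was lost in each of the 6 alternatives that leave out a single sample of that comparison (edgeR adjusted p = 0.0627 to 0.173). In HCT116 oxpl-R cells 6 of the 56 rose and none fell in the fit of all samples, among them KDM4B (0.88 ± 0.21, edgeR adjusted p = 0.00754) and the transcription factor MAFF (0.86 ± 0.21, edgeR adjusted p = 0.00697). Both were not called without HCT116 oxpl-R control replicate 3 (0.75 and 0.72, edgeR adjusted p = 0.0622 and 0.0721) or oxaliplatin replicate 1 (0.63 and 0.64, edgeR adjusted p = 0.0951 and 0.082). In HCT116 cells 3 of the 56 rose and 9 fell, or 10 and 10 without the 3 libraries. Of expressed genes, 15% rose and 14.9% fell in HCT116 cells in the fit of all samples, and 5.33% and 5.16% in HCT116 oxpl-R cells. Without the 3 libraries, 28.6% of all genes were called in HCT116 cells in either direction.

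Replicate numbers ran through the values of HCT116 oxpl-R cells. CA9, NDRG1 and EGLN3 were highest in replicate 1 in all 4 groups of that line, which is 3 of the 10 members, while the same replicate was highest in all 4 groups for 18.5% of 13227 expressed genes. In HCT116 cells no member showed this, against 1.42% of genes, and NDRG1 was lowest in replicate 3 in all 4 groups, against 1.35%. Whether a replicate number marks a culture or a day is not given by the labels. With the number as a block within each line, NDRG1 was also called for oxaliplatin among the E1A samples of HCT116 oxpl-R cells (0.59, edgeR adjusted p = 0.0332, against 0.172 without the block).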

How the data were processed

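RNA-seq of 24 cultures was trimmed with Trimmomatic and quantified with Salmon 1.6.0 against GENCODE transcripts of GRCh38 by the authors, who deposited estimated counts per gene; 15.9% to 30.4% of the values of a sample were not whole, and values were rounded before tests. A second deposited table, named as TPM but summing to 28004261 to 42613322 per sample, was read as length-scaled estimated counts: its median ratio to the count table was 0.972 to 1.03 per sample (8863 genes), and it was used for genes found only there. The last, incomplete line of each table was dropped, and VHL was not analysed here.

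Counts were fitted with edgeR 4.0.16 (TMM, quasi-likelihood test, R 4.3.3) over all 24 samples with the 8 groups as terms and no covariate, and p-values were adjusted by Benjamini-Hochberg over all genes tested, with a threshold of 0.05. Normalized counts are counts over effective library size, times the mean effective library size, and expressed genes have a mean of at least 10. In all, 12 comparisons of 2 groups and 4 interactions were tested. Alternatives were DESeq2 1.42.0, limma 3.58.1 on log2(value + 1) or log2(value + 0.1) of the second table, RLE or library size scaling, filterByExpr, the second table, the samples of a comparison alone, a replicate block, and leaving out each sample. The 3 libraries, the length trend and a block within each line were added after seeing the data. The fits were tested on simulated data.

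The members and lists were chosen with earlier results of these data known. Of the other lists, the genes named are taken from the at most 2 called genes with the largest rise and the 2 with the largest fall in each list, for the untreated lines and for each treatment alone in each line, among those whose samples did not overlap and with a mean of at least 10 normalized counts in the higher group, while any regulator could be named. A gene that this rule also selects is not reported here. No pair of samples within a group was a duplicate (smallest chi-square per degree of freedom 10.64), and pairs across groups were not compared. Same-numbered samples deviated together, with correlations above 0.1 for every pair, only for oxaliplatin in HCT116 oxpl-R cells without E1A (0.104, 0.294 and 0.385) and with it (0.306, 0.319 and 0.418). Positions are from a GENCODE annotation of GRCh38 and promoters from RefSeq. Figures were drawn with matplotlib 3.10.9. Depth sets the precision of low genes: genes with a count in any sample were tested, and no floor was applied to low counts.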

Additional observations from a re-analysis of the deposited data

Results flagged for a closer look

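None of the 10 members differed between the lines in its response to oxaliplatin or E1A by the interaction test. Among the other HIF targets, 3 did so for oxaliplatin (response of HCT116 oxpl-R minus that of HCT116 cells, log2). ANGPTL4 differed by -1.40 ± 0.30 (edgeR adjusted p = 0.00794), with 1.60 in HCT116 cells (means 613 to 1855 normalized counts) and 0.20 in HCT116 oxpl-R cells (789 to 904). KDM4B differed by 1.22 ± 0.30 (edgeR adjusted p = 0.0204), with -0.34 in HCT116 cells (1236 to 976) and 0.88 in HCT116 oxpl-R cells (2310 to 4242). This call was lost in 10 of 24 alternatives, among them those without HCT116 control replicate 1 or 2, HCT116 oxaliplatin replicate 1 or 2, HCT116 oxpl-R control replicate 2 or 3, or HCT116 oxpl-R oxaliplatin replicate 1 (0.97 to 1.22, edgeR adjusted p = 0.0501 to 0.0784). GBE1 differed by 1.49 ± 0.25 (edgeR adjusted p = 0.000539), with -0.91 in HCT116 cells (752 to 400) and 0.58 in HCT116 oxpl-R cells (1519 to 2270).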

How the results depend on the processing

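No result changed direction while called. The number of members called was unchanged or within 1.5 times in 250 of 312 cases. These cases include the 4 interactions, in which no member was called in any setting, so they overstate the stability of the comparisons with calls. Called members were, between the untreated lines (1 as reported), 0 and 0 by limma; between the lines with E1A (0), 1 by DESeq2, 4 without the 3 libraries and 2 with the samples of the comparison alone; with oxaliplatin (5), 3 in the second table, 2 and 2 by limma, 3 without the 3 libraries, 3 with the length trend removed and 1 with its samples alone. For oxaliplatin in HCT116 cells (2) they were 1 in the second table, 1 and 1 by limma, 4 without the 3 libraries and 4 with its samples alone, and in HCT116 oxpl-R cells (2) 1 by library size, 1 and 1 by limma, 1 without the 3 libraries and 0 with its samples alone. Among E1A samples, oxaliplatin changed in HCT116 cells (1) 0 by RLE, 2 by DESeq2, 2 by filterByExpr, 0 in the second table and 0 and 0 by limma, and in HCT116 oxpl-R cells (0) 2 by DESeq2, 1 by filterByExpr, 1 and 1 by limma, 2 without the 3 libraries and 1 with the length trend removed. E1A changed 5 in HCT116 cells (0) with its samples alone and 2 under oxaliplatin in HCT116 oxpl-R cells (0) by DESeq2. The cause was not tested.

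The replicate number as a block gave 3 called members for oxaliplatin in HCT116 cells in place of 2, with NDRG1 added, and changed no other count. As a block within each line it gave the same 3, and 1 (NDRG1) for oxaliplatin among the E1A samples of HCT116 oxpl-R cells. Leaving out each sample gave 0 to 1 between the untreated lines, 0 to 0 with E1A, 1 to 4 with oxaliplatin and 0 to 1 with both. For oxaliplatin it gave 1 to 3 (HCT116) and 0 to 2 (HCT116 oxpl-R), 0 to 0 and 0 to 1 among their E1A samples, 0 to 1 for E1A under oxaliplatin in HCT116 oxpl-R cells, and 0 in the other comparisons of E1A and the interactions. CA9 and NDUFA4L2 rest on few counts, which limits their precision.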
